A study of Rattus norvegicus with 66 samples.

Results

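The genes described here are 9 genes of the oligodendrocyte lineage, of 37777 rows in each gene count file of the series. They were taken by symbol, and each symbol matched 1 row. Pdgfra (gene28160), Olig1 (gene24667), Olig2 (gene24666) and Sox10 (gene17952) stood for precursor cells, and Cnp (gene23852), Mbp (gene33423), Mag (gene1601), Mog (gene34542) and Mobp (gene20400) for myelin. The series holds 66 RNA-seq libraries of dorsal hippocampus, dissected with a little neighbouring neocortex, from 64 Long Evans rat pups of 44 litters on postnatal day (PND) 6. It compared offspring of dams given one of 3 chemicals with offspring of control dams, in males and in females, while the exposure of the pups was still going on.

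Feeding controls (CONF) came from dams on untreated soy-free chow and were represented by 4 males and 5 females. Injection controls (CONSC) came from dams that received the vehicle subcutaneously, with 5 males and 5 females. Aroclor 1254, a mixture of polychlorinated biphenyls, was fed in chow at 0.5 mg/kg (Aro0.5, 4 males) or 5 mg/kg (Aro5, 6 males and 5 females). Bisphenol A, a monomer of plastics, was fed at 0.5 mg/kg (BPA0.5, 4 males) or 5 mg/kg (BPA5, 7 males and 4 females). Chlorpyrifos, an organophosphate insecticide, was injected subcutaneously at 1 mg/kg (CPF1, 4 males) or 3 mg/kg (CPF3, 7 males and 4 females). Feeding ran from before mating to PND 6, and injections were given during gestation and again to the lactating dams, so pups were exposed through the placenta and the milk. Values are given per pup in counts per 1000000 reads assigned to genes (CPM). Since exon lengths were not used, levels were compared between pups and not between genes.

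Oligodendrocyte precursor cells divide and migrate through the young brain under the platelet-derived growth factor receptor Pdgfra. The basic helix-loop-helix factors Olig1 and Olig2 and the high-mobility-group factor Sox10 set the lineage, and Sox10 goes on to switch on myelin genes as the cells mature. Cnp, an enzyme of uncompacted myelin, starts early, the membrane-compacting protein Mbp and the axon-facing adhesion molecule Mag follow, and Mog and Mobp mark the last steps. In the rat forebrain most of this sequence runs after birth, and the first postnatal week precedes the main wave of hippocampal myelination. In bulk tissue fewer cells of a type and less RNA per cell cannot be told apart.

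Sox proteins bind a short core motif, here searched as the letters ACAAAG and, for the other strand, CTTTGT. The 250 bases before the annotated start of Mag (chr1:95291045-95291294, minus strand), Cnp (chr10:86011254-86011503, plus strand) and Mobp (chr8:128746982-128747231, plus strand) are shown because these 3 myelin genes have 1 entry each and hold the motif there. They come from RefSeq on build GRCr8, another build than the one the reads were counted on, and the capitals mark the motif.
Mag: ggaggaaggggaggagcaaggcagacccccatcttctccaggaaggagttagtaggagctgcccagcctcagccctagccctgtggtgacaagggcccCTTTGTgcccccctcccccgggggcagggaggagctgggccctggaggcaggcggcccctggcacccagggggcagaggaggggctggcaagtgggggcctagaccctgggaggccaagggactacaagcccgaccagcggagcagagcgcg
Cnp: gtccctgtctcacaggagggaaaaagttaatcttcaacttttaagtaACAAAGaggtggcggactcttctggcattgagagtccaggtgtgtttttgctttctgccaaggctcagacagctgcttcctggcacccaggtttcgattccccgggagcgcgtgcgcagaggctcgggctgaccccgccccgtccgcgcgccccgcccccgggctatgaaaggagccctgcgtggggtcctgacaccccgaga
Mobp: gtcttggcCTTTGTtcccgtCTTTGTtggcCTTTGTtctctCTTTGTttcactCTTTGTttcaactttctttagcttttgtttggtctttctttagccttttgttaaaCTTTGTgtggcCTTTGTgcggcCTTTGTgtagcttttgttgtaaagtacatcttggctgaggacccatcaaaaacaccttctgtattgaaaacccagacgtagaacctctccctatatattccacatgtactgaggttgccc
The stretch before Mag holds 1 match at 152 bases before the start, and that before Cnp holds 1 at 203. Before Mobp there were 8 matches, all of the form CTTTGT, between 242 and 120 bases before the start. Of 33469 promoter entries of the same length, 5454 (16.3%) hold at least 1 match, and 2 entries (0.00598%) hold 8 or more. The stretches before Olig2 and Pdgfra hold none of these letters. Mbp has 2 entries, for different starts, of which 1 holds no match and 1 holds 1 match. Of the 9 genes, 6 have an entry, and those without are Olig1, Sox10 and Mog. A match of letters is a description of the sequence and not a site.

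Total gene counts ranged from 10644138 to 86206550 per library. Litters had pups of both sexes in 18 cases, and 11 pups were dissected outside the window of 10.30 to 13.20 h. A male CONF pup, N2-2y, and a female CONF pup, N4-3x, had 2 libraries each, which were summed. For N4-3x the labels give its libraries different times of day, so that they may not be repeats of one dissection. Library names are written in 2 forms, called form A and form B here. All 20 libraries of high-dose males have form B, whereas 9 of the 10 libraries of control males and all 12 of low-dose males have form A. In high-dose males the treatment and the name form can therefore hardly be told apart, and what the form stands for is not given in the sources used here.

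The repeat libraries of N2-2y, one of each form, differed in most of the 9 genes. Sox10 stood at 21.6 CPM in the form A library and 41.2 CPM in the form B library. Olig1 stood at 67.0 and 103 CPM, and Mbp at 89.0 and 140.3 CPM. These 3 genes were higher in form B, as were Olig2, Cnp and Mag, with log2 differences of 0.36, 0.44 and 0.64. Pdgfra and Mog were lower in form B, by log2 differences of -0.20 and -0.44, the latter on 42 and 31 counts. The repeat libraries of N4-3x lay closer together, with log2 differences between -0.22 for Olig1 and 0.04 for Mag. These pairs are single pups, so no test was made.

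Precursor genes were well covered in every pup. Pdgfra ranged from 108 to 177 CPM over the 64 pups, Olig1 from 59.9 to 170.4 CPM, Olig2 from 28.4 to 68.1 CPM and Sox10 from 17.8 to 66.1 CPM. Among the myelin genes, Cnp ranged from 117 to 295 CPM, Mbp from 69.2 to 292 CPM and Mag from 8.89 to 44.0 CPM. The late genes had few counts in most pups, with Mog between 0.401 and 3.66 CPM and Mobp between 0 and 28.1 CPM. Mog rested on 9 to 117 counts per pup, and 41 of 64 pups had at most 10 Mobp counts. The single pup without a Mobp count, the female CONSC pup 8-2x, could have held up to 0.195 CPM at its depth, the limit of 3 counts that a count of 0 allows.

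The order of the group means set female groups apart from male groups for several genes. Sox10 was lowest in male Aro5 (32.3 ± 7.27 CPM, SD, n = 6) and highest in female Aro5 (56.1 ± 6.68 CPM, SD, n = 5). The means of all 5 female groups lay above those of all 8 male groups for Sox10, Olig1 and Olig2. For Pdgfra the order was turned, from 125 ± 7.38 CPM (SD, n = 5) in female Aro5 to 164.5 ± 14.5 CPM (SD, n = 4) in male BPA0.5, and all female means lay below all male means. Mog ran from 0.933 ± 0.436 CPM (SD, n = 4) in female CPF3 to 2.65 ± 0.520 CPM (SD, n = 4) in male BPA0.5. Cnp had its lowest mean in male CPF3 (157 ± 38.2 CPM, SD, n = 7) and its highest in male Aro0.5 (213 ± 57.6 CPM, SD, n = 4). The latter rested on the pup 98-8y, since the other 3 Aro0.5 males had 186 ± 22.7 CPM (SD, n = 3), below the 194 ± 24.6 CPM (SD, n = 9) of the male controls by less than the SD. In this order nearly all neighbouring means were closer than the SDs of the groups. The exception was Mog, for which female BPA5 (0.987 ± 0.116 CPM, SD, n = 4) lay below the next group by more than both SDs.

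**Figure D1:**
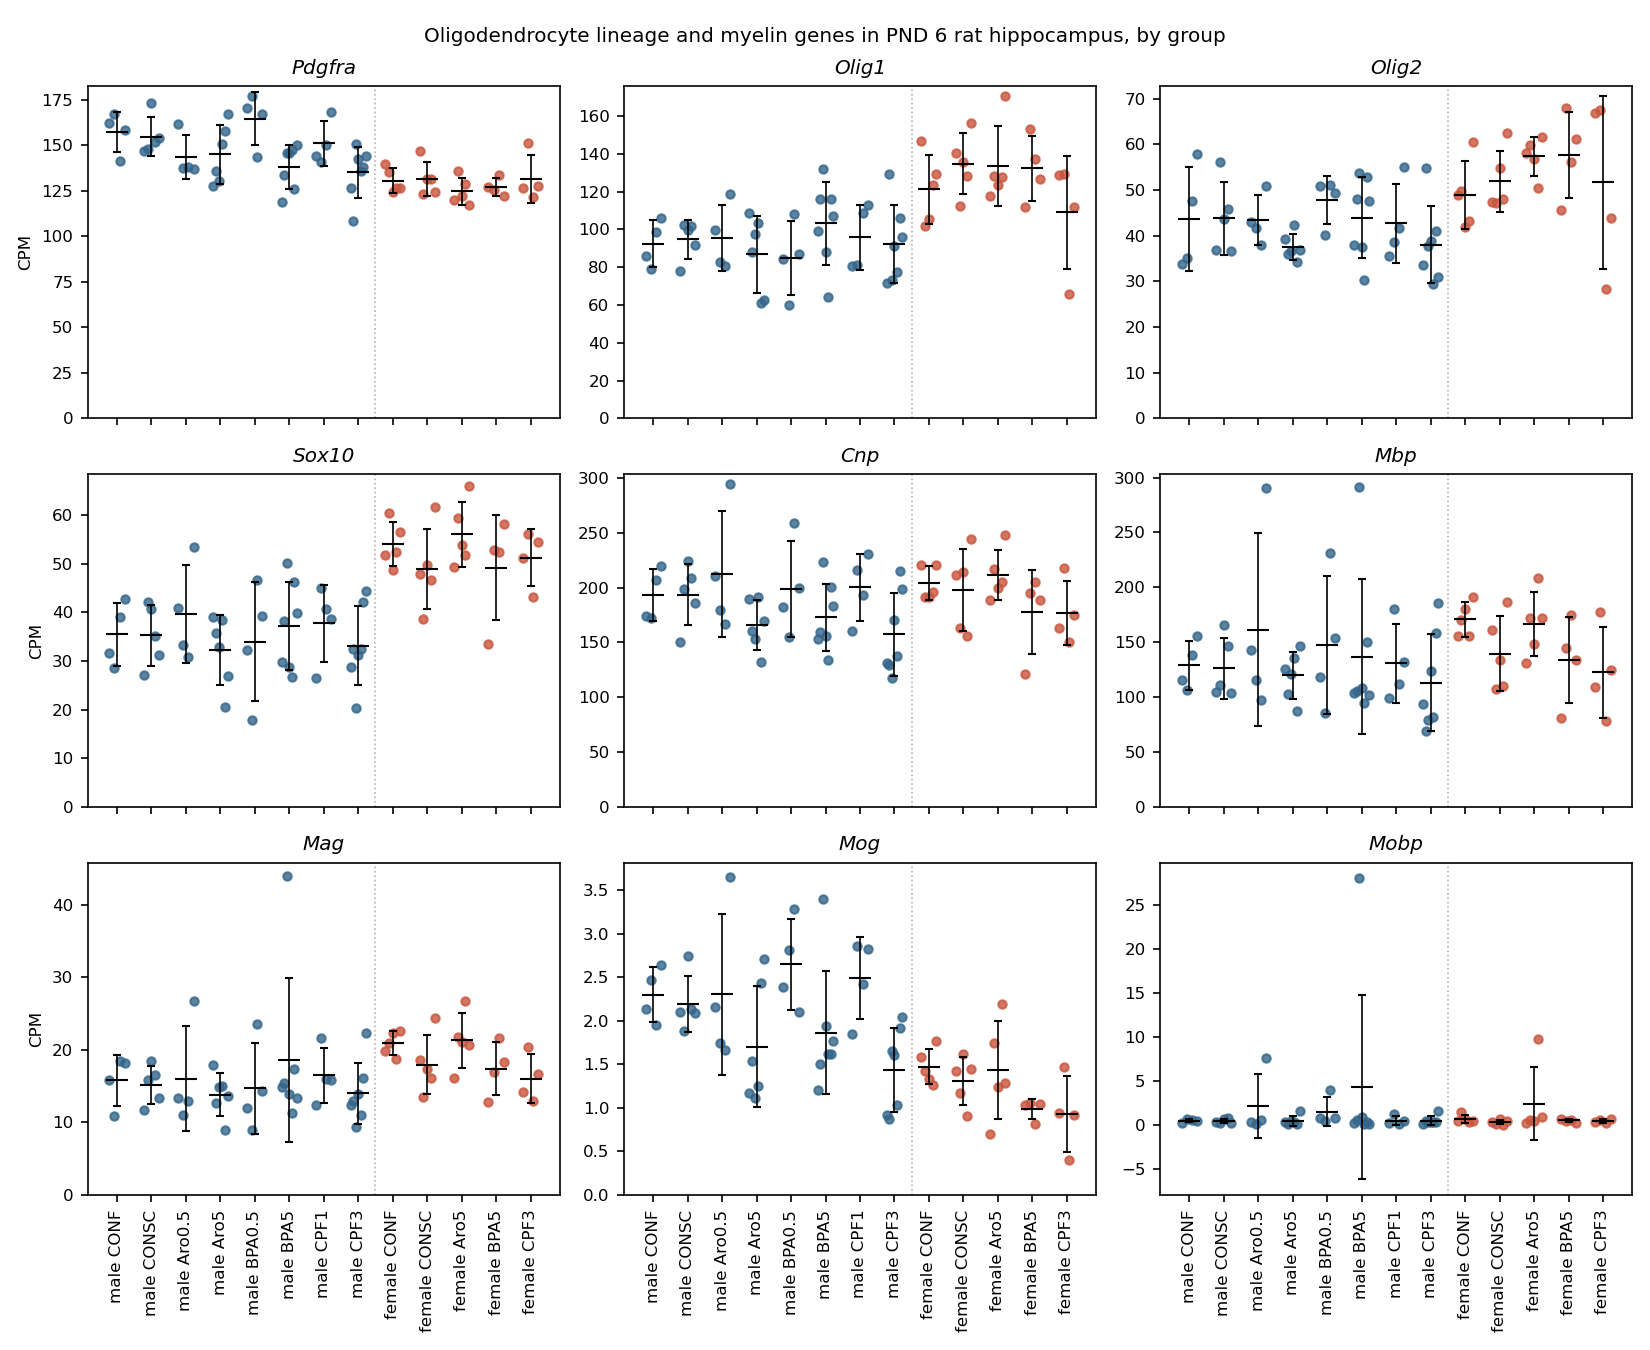
CPM of the 9 genes in each of 64 pups (points, blue for males and red for females) by group, with the group mean (bar) and SD (whiskers) on linear axes. Pdgfra lies lower in the female groups, Mog in most of them (female CONF at 1.47 CPM lies above male CPF3 at 1.44 CPM), Olig1 and Sox10 lie higher there, and single pups with high Mobp stand out in male BPA5 and Aro0.5 and in female Aro5.

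Between control males and control females, the precursor and myelin genes differed in both directions. Olig1 and Sox10 were higher in females and Pdgfra and Mog higher in males. Mbp and Mag were higher in females by smaller steps than Olig1 and Sox10. Of the 8 members tested, 6 passed, 4 of them higher and 2 lower in females. Across all 15763 genes tested 30.2% passed, 17.6% higher and 12.6% lower in females. Sex differences were common in these libraries, and Mobp was not tested because it was too low.

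Pdgfra, the mitogen receptor of precursors, had 142, 154 and 173 CPM as lowest, median and highest value in 9 control males, against 123, 129 and 147 CPM in 10 control females. All but 1 female lay below every male. The log2 difference, female minus male, was -0.21 (SE 0.04), with an adjusted p of 0.00073. All adjusted p-values of gene differences are Benjamini-Hochberg values from the quasi-likelihood test of edgeR.

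Olig1, which drives the maturation of precursors, had 78.3, 98.7 and 106 CPM in control males and 102, 129 and 156 CPM in control females. Of the 10 females, 8 lay above every male. The log2 difference was 0.49 (SE 0.08, adjusted p = 5.2e-05). Olig2, which specifies the lineage, had 33.8, 43.6 and 57.9 CPM in males and 42.0, 48.5 and 62.5 CPM in females. The ranges overlapped broadly, and the log2 difference of 0.25 (95% CI 0.03 to 0.47) did not pass (adjusted p = 0.075). It passed without the male N5-2y (0.32, adjusted p = 0.020) or the male 11-4y (0.30, adjusted p = 0.031).

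Sox10 had 27.2, 35.2 and 42.8 CPM in control males and 38.6, 50.8 and 61.7 CPM in control females. Here 9 of 10 females lay above every male. The log2 difference was 0.57 (SE 0.10, adjusted p = 8.4e-05), the largest of the precursor genes.

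Among the myelin genes, Cnp had 150.3, 199 and 224 CPM in control males and 156, 204 and 245 CPM in control females. The groups overlapped over nearly their whole range, and the log2 difference of 0.09 (95% CI -0.08 to 0.27) did not pass (adjusted p = 0.43). Mbp had 103, 116 and 165 CPM in males and 107, 158 and 191 CPM in females. The females lay higher on average with wide overlap, and the log2 difference was 0.31 (SE 0.11, adjusted p = 0.044). It no longer passed with the litter as a replicate block (0.32, adjusted p = 0.055 by limma) or without any 1 of 12 pups (adjusted p up to 0.10). These were the males N2-2y, N3-4y, N4-7y, 10-2y, 11-4y and 8-4y and the females N4-3x, N1-8x, N3-1x, N8-1x, 11-3x and 6-7x.

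Mag had 10.9, 15.9 and 18.5 CPM in control males and 13.5, 19.3 and 24.3 CPM in control females. Of the females, 7 of 10 lay above every male, with a log2 difference of 0.36 (SE 0.11, adjusted p = 0.019). Mog, a surface protein of mature myelin, had 1.89, 2.13 and 2.74 CPM in males and 0.909, 1.42 and 1.76 CPM in females. It was the only one of the 9 genes for which the groups did not overlap by pup. Taken alone, the form B library of the male N2-2y had 1.75 CPM of Mog on 31 counts, just under the highest female. The log2 difference was -0.64 (SE 0.12, adjusted p = 0.00030). Mobp had 0.182, 0.428 and 0.742 CPM in control males and 0, 0.387 and 1.42 CPM in control females, and the ranges overlapped.

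Control pups of both sexes came from the same litter in 7 cases. Within these litters Olig1 was higher in the female in 7 of 7 and Pdgfra and Mog in 0 of 7. Olig2, Sox10, Mbp and Mag were higher in the female in 6 litters, Cnp in 4 and Mobp in 3.

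The name form is set beside these differences because control males had nearly all their libraries in form A. In N2-2y, itself 1 of the 9 control males, the log2 difference of form B minus form A was 0.62 for Olig1, 0.92 for Sox10, -0.20 for Pdgfra and -0.44 for Mog, where the sex difference was 0.49, 0.57, -0.21 and -0.64. Control females had 5 libraries in form A and 6 in form B, the form being read from another mark in the names than in males, and the sexes were also compared within form A. In that comparison, where 10.9% of all genes passed, 3 of 8 members did, Olig1, Sox10 and Mog, while Pdgfra, Mbp and Mag did not (adjusted p = 0.069, 0.32 and 0.25). This comparison held 14 of the 21 libraries, and the log2 differences were -0.19 (SE 0.06) for Pdgfra, 0.25 (SE 0.15) for Mbp and 0.28 (SE 0.14) for Mag, against -0.21, 0.31 and 0.36 over all controls. All 8 kept their direction. Whether form A stands for the same thing in both sexes is not given, so this comparison may not hold the form constant. Further analyses, added after seeing the data, counted the 2 libraries of a pup separately. With the form as a covariate 4 members then passed (17.8% of all genes), and Mbp (0.27, adjusted p = 0.16) and Mag (0.26, adjusted p = 0.13) did not. This covariate gives both sexes the same form difference, whereas Sox10 differed by 0.92 in N2-2y and by -0.05 in N4-3x. Without the covariate 7 passed (32.2% of all genes), Olig2 among them (0.28, adjusted p = 0.038). Over the alternatives tried the adjusted p ranged from 0.011 to 0.32 for Mbp, from 0.0060 to 0.25 for Mag and from 1.4e-05 to 0.069 for Pdgfra.

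The other genes of the lineage are set beside the 30.2% of all genes that passed in this fit. Of 8 other precursor genes 3 were higher in females and 0 lower, namely Nkx2-2, a transcription factor, at a log2 difference of 1.17 (adjusted p = 7.1e-07), Matn4 at 0.74 (adjusted p = 2.3e-06) and C1ql1 at 0.73 (adjusted p = 9.8e-07). Of 6 genes of committed and newly formed oligodendrocytes tested 0 passed, and 1 had an unadjusted p under 0.05. Of 13 other myelin genes tested, Gal3st1, which makes sulfatide, was higher in females at 0.79 (adjusted p = 0.00029), and Tspan2 was lower at -0.31 (adjusted p = 0.0013). Of 13 signals and regulators, 4 were higher and 1 lower in females. The Notch pathway genes Notch1 and Hes5, known to hold precursors back, were higher at 0.56 (adjusted p = 6.2e-06) and 1.32 (adjusted p = 2.5e-06). Jag1, a ligand of Notch receptors, was lower at -0.25 (adjusted p = 0.045). Lingo1, another brake on maturation, was higher at 0.78 (adjusted p = 1.0e-05), and the thyroid hormone receptor Thra was higher at 0.34 (adjusted p = 0.00025). The other signals and regulators of this list did not pass, and genes that hold precursors back were not tested as a set. The median log2 difference was 0.37 over the 4 precursor members, 0.20 over the 4 myelin members tested and -0.02 over all genes. It was 0.25 over the 8 other precursor genes, 0.03 over the 6 committed genes tested and -0.05 over the 13 other myelin genes tested. The median of the myelin members was thus not shared by the longer list of myelin genes.

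Marker genes of other cells and tissues were compared in the same fit, in which 30.2% of all genes passed, so that counts of 1 or 2 in a list of 3 to 5 genes are not read as differences of that list. Astrocyte markers were higher in females in 0 and lower in 2 of 5, Slc1a3 (-0.17, adjusted p = 0.016) and Gja1 (-0.19, adjusted p = 0.048), with summed levels of 1030 to 1413 CPM in control males and 1001 to 1335 CPM in control females. Microglia markers (0 of 5 passed, 2 with an unadjusted p under 0.05) summed to 57.1 to 108 CPM in males and 66.3 to 92.4 CPM in females. Thalamus markers (0 of 7 passed, 0 with an unadjusted p under 0.05) summed to 453 to 1314 CPM in males and 429 to 1112 CPM in females. All of these sums overlapped between the sexes. Of 4 hippocampal markers tested, Wfs1 (0.82, adjusted p = 8.7e-06) and Pou3f1 (0.78, adjusted p = 0.0034) were higher in females, and the sums, with Fibcd1 at 0 in most pups, were 102 to 186 CPM in males and 111 to 168 CPM in females. Of 5 neocortex markers Tbr1 was higher in females (0.94, adjusted p = 0.015), with sums of 205 to 510 CPM in males and 81.1 to 706 CPM in females. Schwann cell markers (1 of 3 tested higher, Prx at 0.36, adjusted p = 0.048) summed to 3.60 to 7.48 CPM in males and 4.56 to 9.19 CPM in females, with Ncmap at 0 in most pups. Fibroblast markers (1 of 4 tested higher, Col1a1 at 0.49, adjusted p = 0.0082) summed to 96.6 to 167 CPM and 123 to 194 CPM, with Col1a2 at 0 in most pups. Choroid plexus markers (0 of 5 passed, 0 with an unadjusted p under 0.05) summed to 1257 to 3884 CPM and 1569 to 4490 CPM. The part of these sums in the sex differences was not tested.

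**Figure D2:**
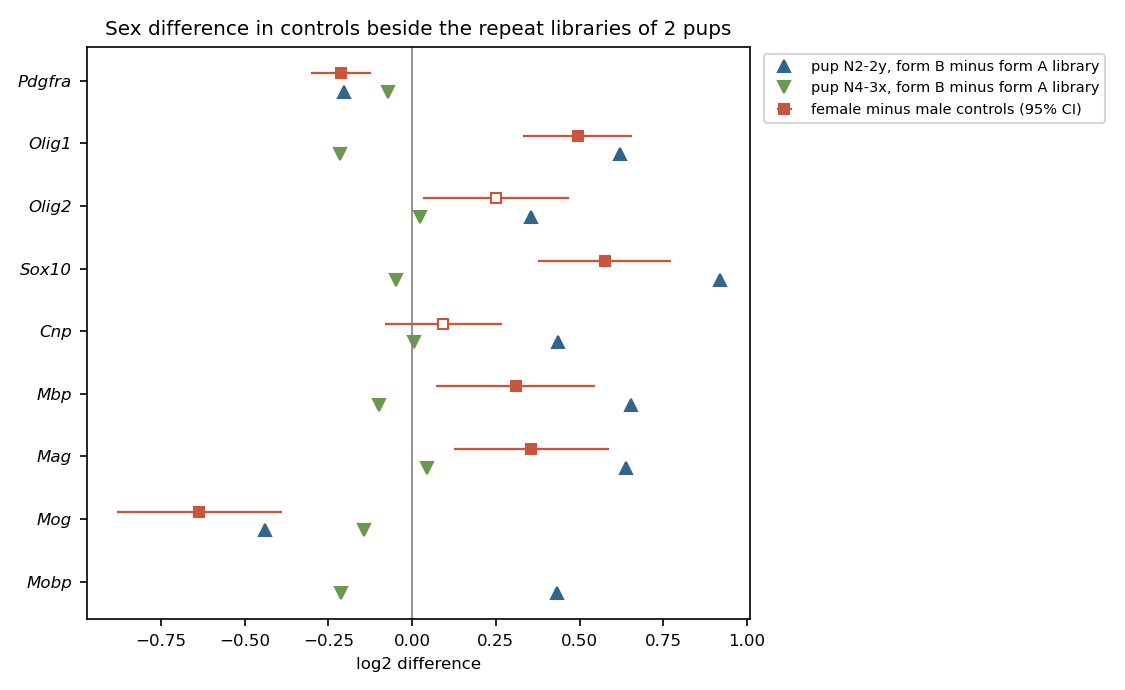
Log2 difference between control females and control males (red squares, 95% CI, filled where the adjusted p was under 0.05) beside the log2 difference between form B and form A libraries of the male pup N2-2y (blue) and the female pup N4-3x (green). For Sox10 the sex difference was 0.57 and the repeat difference of N2-2y 0.92, and the green symbols lie within 0.22 of 0.

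At the high doses none of the 9 genes passed the test in males. Against the 9 male controls combined, 32 of 16393 genes (0.195%) passed under Aro5, 31 (0.189%) under BPA5 and 26 (0.159%) under CPF3, and 0 of 9 members passed in each. DESeq2 likewise called 0 members. Unadjusted p-values under 0.05 were found for 0 members in Aro5, 2 in BPA5 and 3 in CPF3, and for 1929 (11.8%), 1492 (9.1%) and 2064 (12.6%) of all genes. The 3 comparisons share their control pups, so they are not independent of each other.

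Mog had the lowest estimate of the members in CPF3 males, without passing. It had 0.877, 1.61 and 2.04 CPM as lowest, median and highest value in 7 CPF3 males, against 1.89, 2.13 and 2.74 CPM in 9 control males. Of the CPF3 males, 5 of 7 lay below every control. The log2 difference was -0.62 (95% CI -1.08 to -0.16), with an unadjusted p of 0.0099 and an adjusted p of 0.31 in the edgeR test. Over the alternatives the adjusted p ranged from 0.18 to 1.00, and with the name form as a covariate and libraries counted separately the log2 difference was -0.26 (SE 0.47). The corresponding differences were -0.39 in Aro5 and -0.24 in BPA5, with intervals that include 0.

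Pdgfra had 108, 138 and 151 CPM in CPF3 males and 119, 146 and 149.9 CPM in BPA5 males, against 142, 154 and 173 CPM in controls. The treated males lay in the lower part of the control range or under it. The log2 differences were -0.20 (95% CI -0.33 to -0.06, adjusted p = 0.27) for CPF3 and -0.17 (95% CI -0.30 to -0.03, adjusted p = 0.50) for BPA5, and Aro5 stood at -0.09. Cnp had 117, 138 and 216 CPM in CPF3 males against 150.3, 199 and 224 CPM in controls. Of the 7 CPF3 males, 4 lay below every control, and the log2 difference of -0.29 (95% CI -0.53 to -0.04) had an adjusted p of 0.35. Beside these stand the repeat libraries of N2-2y, with log2 differences of form B minus form A of -0.20 for Pdgfra, -0.44 for Mog and 0.44 for Cnp. With the libraries of N2-2y counted separately, an analysis added after seeing the data, 28, 26 and 21 genes passed in Aro5, BPA5 and CPF3, and 0 in each once the name form was also a covariate. The form B library of N2-2y is the only one among the male controls, so that this covariate rests on a single library.

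No lineage factor passed in high-dose males. The log2 differences of Olig1 were -0.09, 0.15 and -0.01 in Aro5, BPA5 and CPF3, those of Olig2 were -0.20, 0.02 and -0.19, and those of Sox10 were -0.11, 0.08 and -0.08. All their intervals include 0, and the widest, for Sox10 in Aro5, ran from -0.44 to 0.21. Mbp (-0.07, 0.11 and -0.16) and Mag (-0.14, 0.28 and -0.13) had intervals that reached from -0.62 to 0.73. Their values in BPA5 rested on the pup 81-1y, without which they were -0.19 and -0.10. The median of the 5 myelin members was -0.14 in Aro5, 0.11 in BPA5 and -0.16 in CPF3, and that of all genes was 0.00, 0.01 and 0.00. Without 81-1y the median in BPA5 was -0.19. A p above the threshold does not show that these levels were alike.

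The lower doses, given to males only, likewise left 0 of 9 members called. In Aro0.5 20 of 16139 genes (0.124%) passed, in BPA0.5 7 (0.0434%) and in CPF1 0 (0%), where 322 genes had an unadjusted p under 0.05 and DESeq2 called 0. Members with an unadjusted p under 0.05 numbered 1, 1 and 0, and both were Mobp. In Aro0.5 and BPA0.5 18.5% and 8.58% of all genes had such a p. Pdgfra stood at -0.05, 0.11 and -0.04, and Olig2 at 0.06, 0.16 and -0.02. Mog had 1.85, 2.42, 2.83 and 2.86 CPM in the 4 CPF1 males, a log2 difference of 0.17 (95% CI -0.24 to 0.59). Of these pups 1 lay just under and 2 just above the control range. The 2 chlorpyrifos doses were fitted in separate models with the same controls, and their difference was not tested.

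In females no member passed at the high doses, and 0 of 16992 genes (0%) passed in any of them. The genes with an unadjusted p under 0.05 numbered 548 in Aro5, 694 in BPA5 and 1493 in CPF3, and DESeq2 called 1, 1 and 3 genes, none of them a member. Mog had 0.401, 0.916, 0.946 and 1.47 CPM in the 4 CPF3 females, against 0.909, 1.42 and 1.76 CPM as lowest, median and highest value in 10 control females. It was low in 3 of the 4, and 1 lay under every control. The log2 difference was -0.60 (95% CI -1.13 to -0.07, unadjusted p = 0.028, adjusted p = 0.52). In BPA5 females Mog had a log2 difference of -0.51 (95% CI -1.04 to 0.02) and in Aro5 females of 0.04. The precursor genes of females had log2 differences between -0.21, for Olig1 in CPF3, and 0.21, for Olig2 in BPA5. Mbp and Mag stood at 0.12 and 0.15 in Aro5, at -0.21 and -0.14 in BPA5 and at -0.32 and -0.25 in CPF3, with no member past the threshold.

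Whether a treatment acted differently in the sexes was tested as an interaction over control and high-dose pups. The name form, which goes with the treatment in males, could not be read for high-dose females. It was not a covariate in the fits of high-dose females or of the interaction. For Aro5 17 of 17282 genes (0.0984%) passed, for BPA5 7 (0.0405%) and for CPF3 8 (0.0463%), and 0 of 9 members in each. Pdgfra in CPF3 differed by 0.22 (95% CI 0.04 to 0.39, unadjusted p = 0.018, adjusted p = 0.87). Olig2 in Aro5 differed by 0.39 (SE 0.20, unadjusted p = 0.053, adjusted p = 0.57), with 34.2 to 42.5 CPM in the 6 males and 50.5 to 61.6 CPM in the 5 females.

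The feeding and injection controls were also set against each other. In males 2 of 15387 genes (0.013%) and in females 0 of 16618 (0%) passed, and DESeq2 called 2 and 0. Genes with an unadjusted p under 0.05 numbered 152 and 713. Of the members 0 passed and 0 had an unadjusted p under 0.05 in either sex. In males the log2 differences, CONSC minus CONF, lay between -0.07 for Mag and Mog and 0.03 for Olig1. In females Mbp stood at -0.30 (95% CI -0.61 to 0.01) and Mag at -0.23 (95% CI -0.52 to 0.07). Mobp, on few counts, stood at -1.01 (95% CI -2.28 to 0.25) in females and was not tested in males. Of 7 tested genes of committed oligodendrocytes 3 had an unadjusted p under 0.05 in females, with a median of -0.24. This compares with 0 of 8 other precursor genes and 4.29% of all genes.

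The lists of other lineage genes gave no call in any treatment, in males or females. These were 8 other precursor genes, 6 or 7 tested genes of committed oligodendrocytes, 13 tested myelin genes and 13 signals. In CPF3 males the medians were -0.04, -0.20, -0.20 and 0.10, against 0.00 over all genes. The genes with an unadjusted p under 0.05 numbered 0, 3, 1 and 3 there, where 12.6% of all genes had such a p. In BPA5 males the medians were 0.14, -0.13, -0.09 and 0.06, with 0, 1, 1 and 3 such genes, against 9.1% of all genes. Tcf7l2 stands in both the committed list and the thalamus list. Neocortex markers had medians of 0.67 (Aro5), 0.38 (BPA5) and 0.45 (CPF3) in males. Of these 5 markers 0 passed, and 4, 2 and 3 had an unadjusted p under 0.05, against 11.8%, 9.1% and 12.6% of all genes. Microglia markers had a median of -0.30 in CPF3 males, with 3 of 5 genes at an unadjusted p under 0.05. Astrocyte markers stood at -0.175 there, with 2 of 5 such genes, and Schwann cell markers at -0.39, with 1 of 3. Choroid plexus markers stood at -0.30, with 0 of 5, whereas fibroblast, hippocampal and thalamus markers stood at 0.16, 0.13 and 0.07. In BPA5 males fibroblast markers had a median of 0.30, with 2 of 4 such genes. Of these markers 0 passed. In Aro0.5 males thalamus markers had a median of 0.65, choroid plexus markers of -0.79 and neocortex markers of -0.42. There 0 markers of these lists passed, and 5 of 7, 3 of 5 and 2 of 5 had an unadjusted p under 0.05, against 18.5% of all genes. In BPA5 females choroid plexus markers had a median of -0.58, with 2 of 5 genes at an unadjusted p under 0.05 (4.08% of all genes), and thalamus markers of 0.33, with 0 of 7. In CPF3 females microglia markers had a median of -0.17, with 2 of 5 such genes (8.79% of all genes), and neocortex markers of -0.32, with 0 of 5. The part of these differences in the values of the members was not tested.

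**Figure D3:**
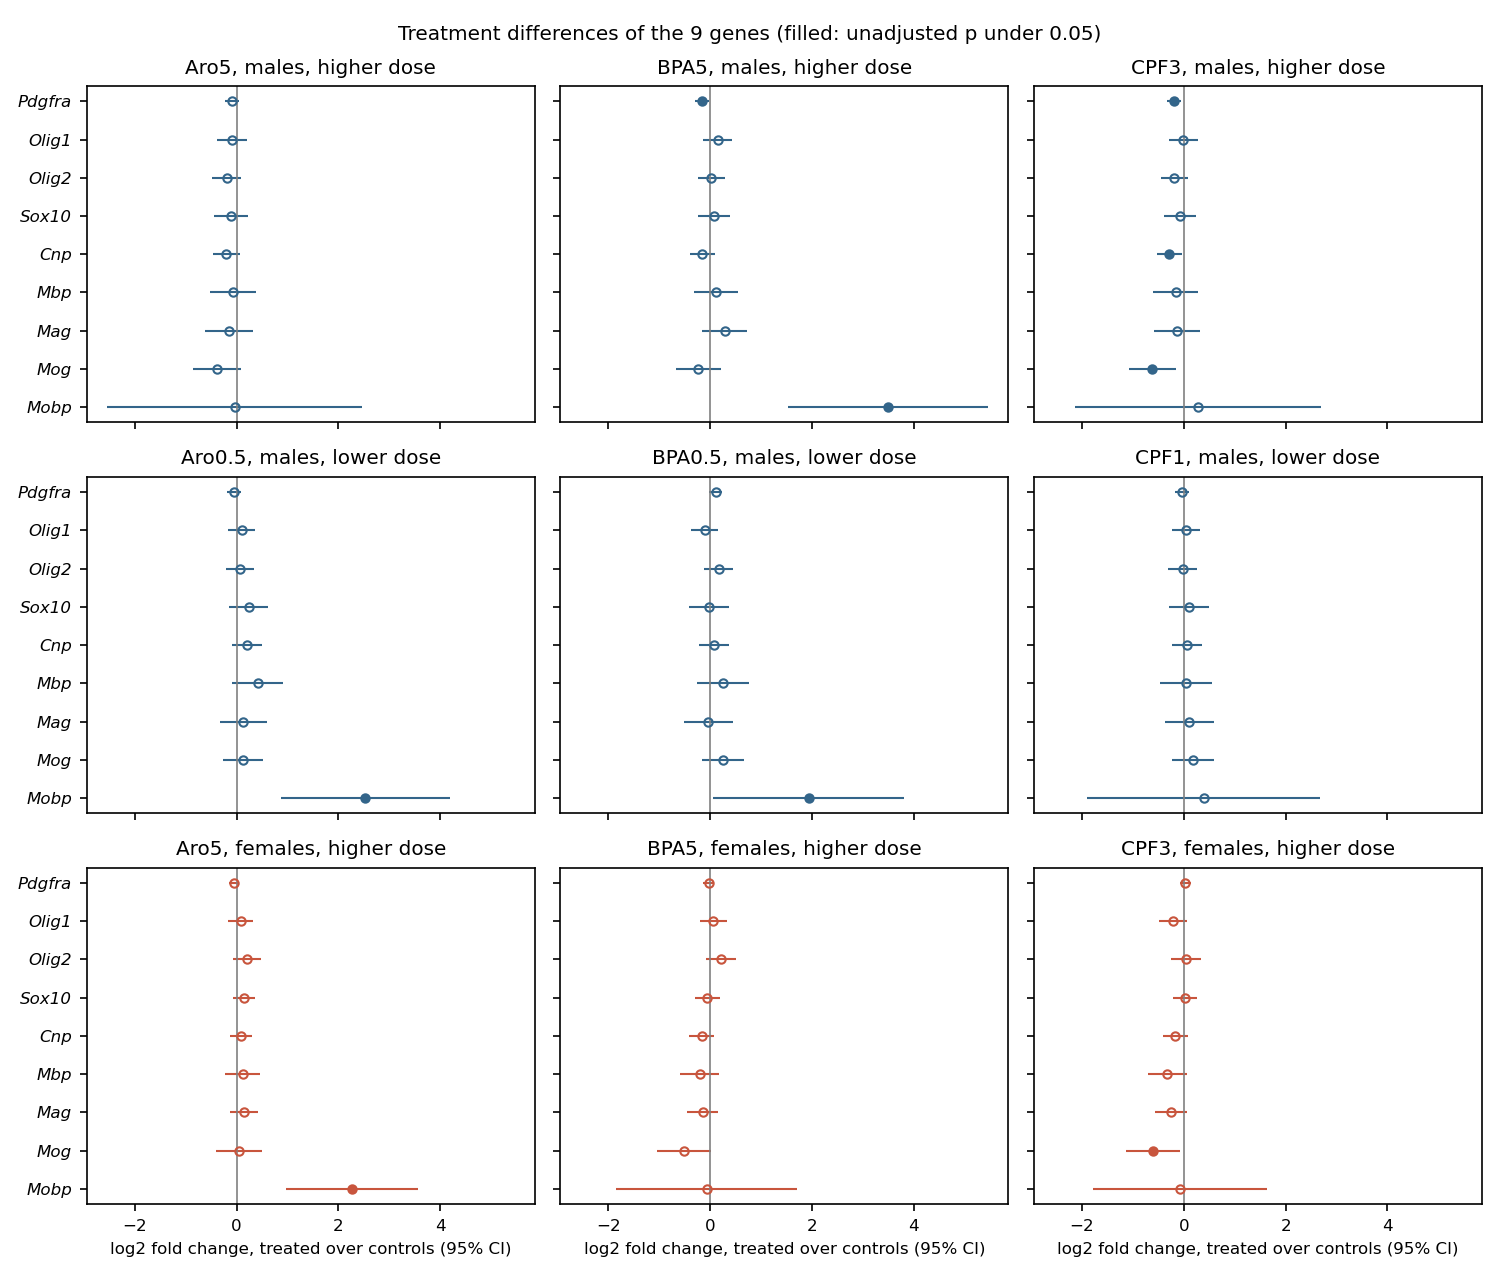
Log2 fold change of each gene against the controls of the same sex (points, 95% CI; filled where the unadjusted p was under 0.05) for high-dose males, low-dose males and high-dose females. The 8 genes other than Mobp have points between -0.62 and 0.42, and Mobp has wide intervals, with points of 3.50 in BPA5 males, 2.53 in Aro0.5 males and 2.27 in Aro5 females.

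Mobp, a late protein of compact myelin, owed its large differences to single pups. It exceeded 3 CPM in 4 of 64 pups, each in another treated group. The BPA5 male 81-1y had 885 counts, or 28.1 CPM (95% exact binomial interval 26.3 to 30.0). The Aro5 female 117-6x had 259 counts, 9.78 CPM (8.63 to 11.1). The Aro0.5 male 98-8y had 242 counts, 7.56 CPM (6.64 to 8.58), and the BPA0.5 male 73-4y had 58 counts, 3.98 CPM (3.02 to 5.14). These intervals cover counting error only. The other 60 pups had 0 to 68 counts with a median of 7, and at most 1.61 CPM.

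The other pups of the same groups lay in or near the control range. In BPA5 males they had 0.0545 to 0.817 CPM, in Aro5 females 0.234 to 0.920 CPM, in Aro0.5 males 0.0357 to 0.486 CPM and in BPA0.5 males 0.470 to 0.778 CPM. The male controls ranged from 0.182 to 0.742 CPM, and the female controls from 0 to 1.42 CPM. With these pups the log2 differences of Mobp were 3.50 in BPA5 males (95% CI 1.54 to 5.46, adjusted p = 0.21), 2.53 in Aro0.5 males (adjusted p = 0.14), 1.93 in BPA0.5 males (adjusted p = 0.57) and 2.27 in Aro5 females (adjusted p = 1.00). Without 81-1y, 98-8y, 73-4y and 117-6x in turn they were -0.18, -0.55, 0.84 and 0.07. DESeq2, which replaces outlying counts in groups of 7 or more, gave -0.31 for BPA5 males with 81-1y left in. The interaction of BPA5 with sex for Mobp went from -3.57 (unadjusted p = 0.018) to 0.11 without 81-1y.

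High Mobp came with high levels of Mbp and Mag. In Mbp the 4 pups 81-1y, 117-6x, 98-8y and 73-4y ranked 1, 4, 2 and 3 from the highest of 64 pups, and in Mag 1, 2, 3 and 5. For Mog the ranks were 2, 14, 1 and 3. Pup 81-1y had 292 CPM of Mbp and 44.0 CPM of Mag, where the other BPA5 males had 94.9 to 150.3 and 11.3 to 17.3 CPM. Pup 98-8y had 290.3 CPM of Mbp, where the other Aro0.5 males had 96.8 to 142 CPM. Precursor genes stood out less, as the summed CPM of Pdgfra, Olig1, Olig2 and Sox10 ranked 8, 17, 16 and 21.

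Other myelin genes ranked less evenly. The summed CPM of the list of other myelin genes ranked 2, 27, 3 and 10 in 81-1y, 117-6x, 98-8y and 73-4y. That of the list of committed oligodendrocyte genes ranked 9, 31, 1 and 45. This sum leans on Tcf7l2, also a thalamus marker, with 560889 counts over all pups. Bcas1, the next gene of the list, had 171493. In 73-4y Bcas1, Myrf, Enpp6 and Gpr17 of this list ranked 1, 9, 21 and 29. Cldn11, a tight junction protein of myelin, ranked 1, 9, 2 and 3. Cnp ranked 7, 21, 1 and 2. Ermn, a gene of mature oligodendrocytes, ranked 39, 27, 54 and 62, on 23, 25, 15 and 5 counts. Hapln2, found at nodes, had 20, 2, 0 and 2 counts and Opalin 2, 3, 3 and 1, too few to rank these pups, except that 81-1y had the highest Hapln2 level of all. Mbp and Mag were thus among the 5 highest in all 4 pups, and Cnp and Cldn11 in some of them.

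Of these 4 pups, 117-6x and 81-1y had a littermate of the other sex in the series, and neither littermate had the high level. The male 117-4y and the female 81-6x had 11 Mobp counts each (0.314 and 0.430 CPM), with 136 and 145 CPM of Mbp. Among the marker sums, thalamus ranked 7, 30, 5 and 50 in 81-1y, 117-6x, 98-8y and 73-4y, astrocytes 37, 7, 1 and 5, and microglia 6, 7, 1 and 2. Neocortex ranked 52, 19, 62 and 63, hippocampus 56, 24, 5 and 61, choroid plexus 55, 60, 46 and 9, Schwann cells 10, 29, 22 and 9 and fibroblasts 33, 14, 34 and 63. Microglia markers were among the 7 highest in all 4 pups, at 95.9 to 115 CPM against 47.6 to 115 CPM over all pups. Their part in the Mobp values was not tested.

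**Figure D4:**
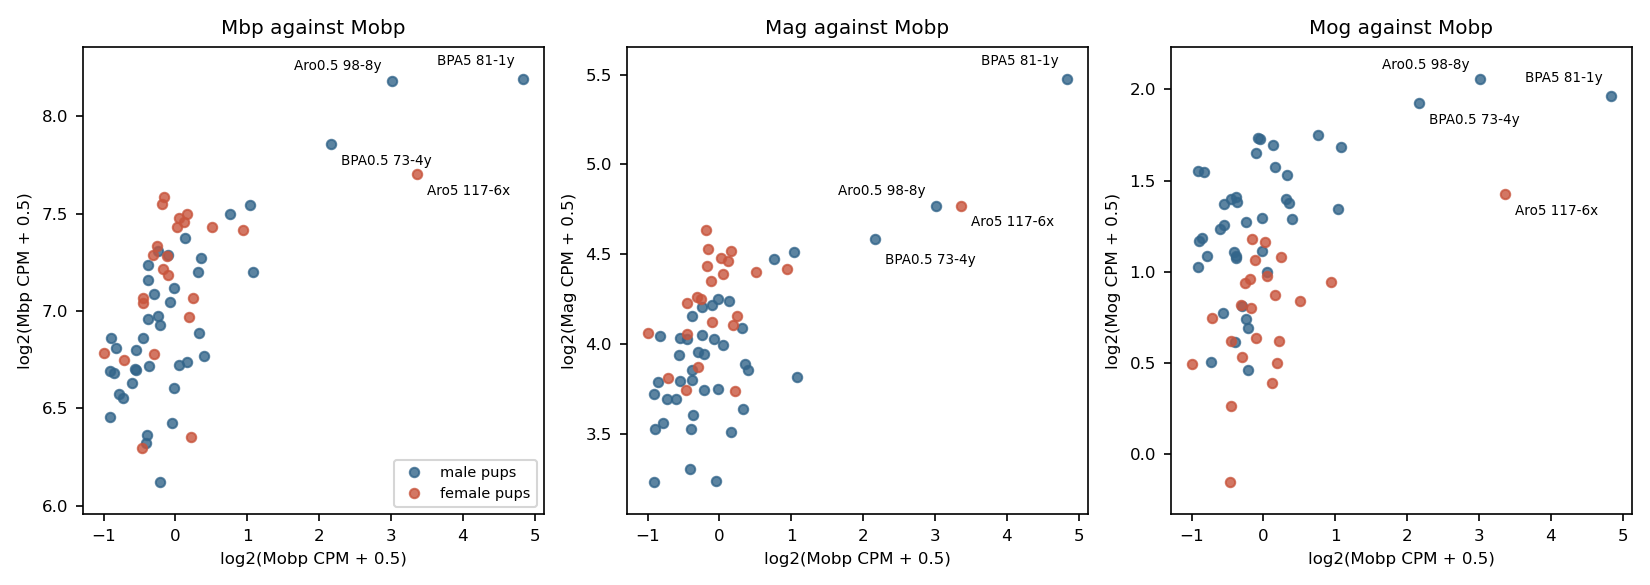
Mbp, Mag and Mog against Mobp in 64 pups, all as log2(CPM + 0.5), blue for males and red for females. The 4 labelled pups lie to the right of the other 60 pups and near the top for Mbp and Mag.

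The balance of myelin against precursor genes was described in each pup by an index, the mean log2(CPM + 0.5) of the 5 myelin genes minus that of the 4 precursor genes. As gene lengths are fixed, the index can be compared between pups. Group means ran from -2.55 ± 0.10 (SD, n = 4) in female BPA5 to -1.91 ± 0.35 (SD, n = 4) in male BPA0.5. Male controls had -2.14 ± 0.14 (SD, n = 9) and female controls -2.35 ± 0.21 (SD, n = 10). The range of the 13 group means was 0.64, where the SD within groups was 0.36, and single pups ran from -2.79 to -0.76. The highest was 81-1y, and 98-8y, 117-6x and 73-4y followed at -1.11, -1.36 and -1.39. Mobp, by which these 4 pups were picked, is 1 of the 5 myelin genes of the index. By the share of the myelin genes in the summed CPM of all 9, where Mobp weighs little, 98-8y was highest at 63.4%, 81-1y and 73-4y had 60.7% and 59.9%, and 117-6x at 55.8% lay below the CPF1 male 21-1y (58.0%) and the CPF3 male 45-1y (56.6%). The range of group means was 0.46 without Mog and 0.86 without Pdgfra, the 2 genes that were lower in females.

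Within groups most pairs of myelin genes rose and fell together from pup to pup, less clearly in females within the time window. Values were centred on the group mean, and each of 36 pairs was tested in 41 males and in 23 females by permutation within groups, with Benjamini-Hochberg adjustment over the 36 pairs of a sex. In males 24 of 36 pairs passed, with 10 of 10 pairs of myelin genes at r from 0.45 to 0.91. In females 17 of 36 passed, with 8 of 10 myelin pairs and r from 0.11 to 0.93. With females dissected inside the time window alone (n = 20), 8 of 36 passed, with 4 of 10 myelin pairs. With males inside the window (n = 33), 23 of 36 passed, with 10 of 10 myelin pairs.

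Beside these relations stand the repeat libraries of N2-2y, in which Olig1, Sox10, Cnp, Mbp and Mag were all higher in form B, by 0.62, 0.92, 0.44, 0.65 and 0.64 on the log2 scale, within a single pup. The part of differences between libraries in the relations was not tested.

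Mbp and Mag were the closest pair. In males r was 0.91 and rho 0.90, and in females r was 0.93 and rho 0.91, with adjusted permutation p-values of 4.5e-05 and 0.00036 from the smallest p that these permutations can give. Without the 2 pups farthest from the median of Mbp, r was 0.87 and 0.93. Cnp and Sox10 gave r = 0.87 (rho 0.90, adjusted p = 4.5e-05) in males and r = 0.84 (rho 0.76, adjusted p = 0.0023) in females, and 0.87 and 0.72 without the 2 farthest pups. The early myelin enzyme thus ran with the lineage factor in both sexes. Olig1 and Olig2, neighbouring genes of one family, gave r = 0.76 (rho 0.77, adjusted p = 4.5e-05) and 0.79 (rho 0.67, adjusted p = 0.0042), and 0.77 and 0.68 without those pups.

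Pdgfra was weakly related to the other precursor genes in both sexes. With Olig1 its r was -0.39 in males (rho -0.30, adjusted permutation p = 0.047 for r and 0.12 for rho) and 0.30 in females (rho 0.20, adjusted p = 0.40). With Olig2 and Sox10 r was -0.21 and -0.24 in males (adjusted p = 0.28 and 0.23) and 0.24 and 0.14 in females (adjusted p = 0.58 for both). The difference between the sexes was not tested. With Mog its r was 0.54 in males (rho 0.56, adjusted p = 0.0035) and 0.52 in females (rho 0.46, adjusted p = 0.081). In a split made after seeing the data, the 20 males with form B libraries gave r = -0.54 (adjusted p = 0.047) with Olig1 and 0.75 (adjusted p = 0.0012) with Mog. The 21 males with a form A library gave -0.10 (adjusted p = 0.74) and 0.12 (adjusted p = 0.71). These 2 relations did not pass within form A, and the difference between the subsets was not tested. All males of the form B subset had a high dose, and those of the form A subset were controls or had a low dose. The split is thus also one by dose. Mbp with Mag gave 0.90 and 0.93 in the respective subsets. Mag and Mog in males rested on few pups, as r went from 0.45 (rho 0.26, adjusted p = 0.022) to 0.18 without the 2 farthest.

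**Figure D5:**
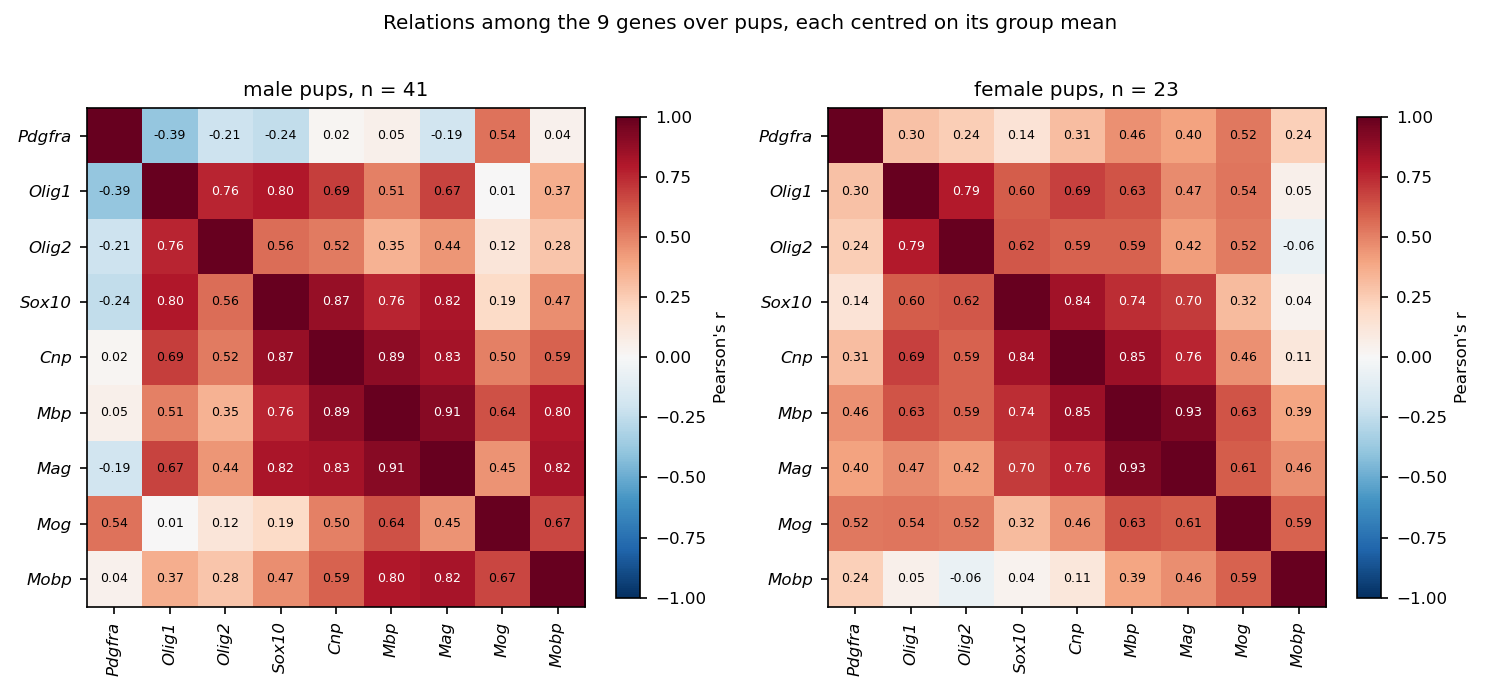
Pearson's r between the 9 genes over 41 male pups (left) and 23 female pups (right), computed on log2(CPM + 0.5) after subtracting each group's mean, on a scale from -1 (blue) to 1 (red). The block of Cnp, Mbp and Mag is red in both sexes (0.91 and 0.93 for Mbp with Mag), and Pdgfra is blue or pale against Olig1, Olig2 and Sox10 in males.

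Over all 64 pups, 14693 genes with a mean of at least 1 CPM were ranked by their correlation with the mean of each set, after subtracting group means. The genes share the same libraries and their differences in depth and tissue, and no test was made. Nearest to the precursor mean were Fgfrl1 (r = 0.86), Tbc1d9b (0.85), Cspg4 (0.83), Rhog (0.82) and Rgcc (0.81). Cspg4 encodes the proteoglycan NG2, a classical marker of precursors, and Fgfrl1 is a receptor-like protein of the fibroblast growth factor family. Nearest to the myelin mean were Grin2c (0.77), Gpr37l1 (0.76), Syt12 (0.76) and Cldn11 (0.75). Cldn11 is a myelin gene, Grin2c encodes an NMDA receptor subunit and Gpr37l1 is a receptor of astrocytes.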

How the data were processed

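RNA of 64 pups was sequenced as 66 stranded mRNA libraries. Per the submitters' processing notes and the study's methods, the authors aligned the reads with STAR to build Rnor_6.0 and counted them per gene with featureCounts. They deposited raw counts per gene, 1 file a library. Tool versions, the strandedness used in counting and how multi-mapping reads were treated are not given in the sources used here, and counts per gene do not separate isoforms. kallisto is also named in these notes, and its role is not given. Each file holds 37777 rows, paired with symbols by the gene map that the authors deposited.

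Group, sex, pup, litter and time of day came from the sample labels. The 2 libraries of a pup were summed (counted separately in the alternatives on the name form), and CONF and CONSC pups of a sex were combined as controls, as in the study. CPM are counts divided by the pup's total of gene counts. Genes were tested with edgeR 4.0.16 (R 4.3.3; TMM scaling, filterByExpr by group, quasi-likelihood F test), with Benjamini-Hochberg adjustment over all genes tested and a threshold of 0.05. The test between sexes had the route as a covariate. Fits were made for high-dose males, low-dose males, high-dose females, the control groups, the sexes in controls and the interaction of sex and treatment, and the script was tested on simulated data. Alternatives were DESeq2 1.42.0, its size factors, no filter beyond 1 count, leaving out each pup, pups within 10.30 to 13.20 h, 1 pup per litter and sex, controls of the same route, libraries counted separately with and without the name form as a covariate, and the litter as a replicate block (limma 3.58.1 with duplicateCorrelation). Littermates share a litter by label, and the consensus correlation of littermates was -0.14 in controls and -0.01 in the interaction fit. Relations (Pearson's r, Spearman's rho) were tested by 100000 permutations within groups (SciPy 1.17.1). Nearest genes were the 5 with the highest r to the mean of the precursor or the myelin genes. 1 of them is not reported here. Pups of a group were separate animals, 2 groups held a pair of littermates, and dams rather than pups were treated.

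The 9 genes, the lists of other lineage and marker genes and the tests were chosen with earlier results of these data known. Each of the 9 genes is reported, and other genes of a list are named where they passed. Tcf7l2 and Sox6 are also named for the result that the study reported. Cldn11, Ermn, Hapln2, Opalin, Tcf7l2, Bcas1, Myrf, Enpp6 and Gpr17 are named beside the pups with high Mobp, and were chosen after the values of these pups were seen. Total counts were 10644138 to 86206550 per library, and Mog and Mobp rest on few counts. The part of counting error in the spread between pups was not tested.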

Additional observations from a re-analysis of the deposited data

Results flagged for a closer look

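A pup stood far from the rest of its group in 13 of 117 combinations of gene and group, by Dixon's criterion on log2(CPM + 0.5), which marks about 1 in 20 by chance. On CPM it marked 16, of which 12 were among these 13. The other 4 were Mobp (7.56 CPM) and Mag (26.8 CPM) in the Aro0.5 male 98-8y, Mobp in the BPA0.5 male 73-4y (3.98 CPM) and Mobp in the CONF female N4-3x (1.42 CPM). Of the 13, 4 belong to the BPA5 male 81-1y, with Mbp at 292 CPM, Mag at 44.0 CPM, Mog at 3.40 CPM and Mobp at 28.1 CPM. The other 6 BPA5 males had 94.9 to 150.3, 11.3 to 17.3, 1.21 to 1.94 and 0.0545 to 0.817 CPM.

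Mobp was also high in the Aro5 female 117-6x at 9.78 CPM (others 0.234 to 0.920), in the Aro5 male 120-2y at 1.61 CPM (others 0.0307 to 0.359) and in the CPF3 male 45-1y at 1.55 CPM (others 0.102 to 0.361). These last values rest on 26 and 41 counts. Mog in the BPA5 female 85-4x was low at 0.813 CPM (others 1.04 to 1.06), on 25 counts. Cnp in the BPA5 female 79-4x was low at 121 CPM (others 189 to 205).

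Among precursor genes, Pdgfra was high in the Aro0.5 male 105-5y at 162 CPM (others 137 to 138) and in the CONSC male 13-1y at 173 CPM (others 147 to 154). Olig1 was high in the Aro5 female 120-3x at 170.4 CPM (others 118 to 128), and Olig2 was low in the BPA0.5 male 72-4y at 40.1 CPM (others 49.3 to 51.0).

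Olig2 in Aro5 pups lay on opposite sides of the control means in the sexes. All 6 males lay below the mean of the male controls (mean 37.6 against 43.7 CPM), and all 5 females above that of the female controls (57.4 against 50.5 CPM), the lowest of them only just. The interaction was 0.39 on the log2 scale and did not pass (adjusted p = 0.57 by edgeR), nor did Olig2 in either sex (adjusted p = 0.61 and 1.00).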

How the results depend on the processing

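Over the 14 contrasts of treatments, control groups and interactions, 0 members were called in any of 486 alternative fits. For the sexes in controls, 6 of 8 members passed in the fit reported, 6 with DESeq2, its size factors, no filter or the time window, 5 with the litter as a replicate block, where Mbp was lost (4325 genes passed), 7 with the libraries of a pup counted separately (5057 genes) and 4 with the name form as a further covariate (2796 genes), both chosen after seeing the data, and 3 within form A (1721 genes), and 5 to 7 when a pup was left out. The litter block changed no other call. Of 4572 values of members under alternatives 0 turned a called direction, 18 lost and 3 gained the threshold, and 61 uncalled values moved by more than their SE. In females 8 of 36 pairs of members passed within the time window, against 17, and in males 17 in form B and 23 in form A, against 24.

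Counts over all genes moved more. For Aro5, BPA5 and CPF3 males DESeq2 called 101, 63 and 82 genes, the time window left 818, 8 and 18, controls of the same route 12, 12 and 11, libraries counted separately (chosen after seeing the data) 28, 26 and 21, and the name form as a further covariate 0, 0 and 0. For Aro0.5 and BPA0.5 DESeq2 called 258 and 37, controls of the same route gave 1 and 0, separate libraries with the name form 13 and 1, and the time window 0 and 1. Leaving out 1 pup gave 25 to 176 genes for Aro5 males (176 without 108-1y, 67 without the control N2-2y), 25 to 39 for BPA5, 17 (without 35-5y) to 41 (without the control 10-2y) for CPF3, 0 (without 94-3y) to 322 (without the control 8-4y) for Aro0.5, and 0 (without 73-4y) to 31 (without 75-1y) for BPA0.5. In the Aro5, BPA5 and CPF3 interactions it gave 8 to 26, 0 to 12 and 3 to 11. In the Aro5 interaction the time window gave 609, and DESeq2 34, 15 and 16 in the 3 interactions. The causes were not tested. Taking 1 pup per litter was not run for low-dose males and controls, which share no litter within a sex, nor the time window in female controls, none of whom lay outside it. Depth limits Mog and Mobp most.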
